A study of Mus musculus with 6 samples.

Results

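The Krüppel-like factors (Klf) are transcription factors that end in a run of zinc fingers, and 9 of them were followed here from pluripotent to retinoic acid-treated cells: Klf2, Klf3, Klf4, Klf5, Klf6, Klf7, Klf9, Klf10 and Klf13. They were taken by name from the deposited RNA-seq table, which lists 17 Klf genes among 22969 distinct gene names. The study compared mouse E14Tg2a embryonic stem cells (ESCs) grown with leukemia inhibitory factor (LIF) with neuronal cells (NCs), the name given to LIF-free monolayers of the same line after 48 h with 1 µM retinoic acid (RA). Each condition had 3 samples at passages 37 to 40, each made of RNA from a pair of culture plates. Both conditions shared serum-containing medium and 1 genetic background, LIF was removed and RA added together, and the part of each in any difference cannot be told apart. The table gives 1 value per gene and condition, estimated by the authors over the 3 samples, in fragments per transcript length and sequencing depth (FPKM, fragments per kilobase of transcript and per set number of mapped fragments). The values of the single samples were not used here, so every difference below is a description with no error, no p-value and no check against the spread between replicates.

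In the Klf family the zinc fingers read GC-rich and CACCC-type DNA, while the stretches before the fingers differ and decide whether a member activates or represses. Klf2, Klf4 and Klf5 act together with the pluripotency factors of mouse ESCs, and Klf4 is a target of the LIF and Stat3 pathway. Klf3 represses by binding C-terminal binding proteins (Ctbp), and Klf9, Klf10 and Klf13 repress by binding the Sin3 corepressor. Klf6 and Klf7 are close relatives with an acidic activating stretch.

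The DNA-reading part is common to these 9 genes but not theirs alone, since the Sp factors treated below have the same kind of fingers. In them Klf13 shares 72.8% of residues with Sp1 and 63.0% with Klf2. The stretch chosen to show this part is the coding sequence of 8 codons in the middle finger, over the helix that lies in the DNA groove. It was read from GENCODE M21 transcripts on GRCm38 (mm10), lies in 1 exon in every member, and is written 5′ to 3′ on the coding strand with capitals where a base differs from Klf4.
Klf4: cgctccgatgaactgaccaggcac
Klf2: cgctcTgaCgaGctTaccCgCcac
Klf5: cgGtcGgatgaGctgaccCgCcac
Klf3: cgGtcTgatgaactgacGagAcaT
Klf6: AgAAGTgatgaGTtgaccagAcac
Klf7: cgGAGcgatgaGctCacAaggcac
Klf9: cgctcGgatgaGctgaccCgCcac
Klf10: cgctccgatgaactgTccagAcac
Klf13: cgctcGgaCgaGctgGcACggcac
The stretch encodes the same 8 residues in 7 members, although Klf6 differs from Klf4 at 8 of 24 bases. Klf10 and Klf13 each keep 7 of the 8 residues, and Klf10 does so with only 2 base differences from Klf4. The Klf4 stretch is at chr4:55528227-55528250 on the minus strand, in the last of 5 exons, and the Klf2 stretch is at chr8:72320794-72320817 on the plus strand, in the last of 3 exons.

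The 9 genes lie on 9 different chromosomes, so no pair of them is a genomic neighbor. In GENCODE M21, Klf4 spans chr4:55527143-55532466 on the minus strand and encodes 483 residues, Klf2 spans chr8:72319033-72321656 on the plus strand and encodes 354, and Klf5 spans chr14:99298691-99315036 on the plus strand and encodes 446. Klf9 spans chr19:23141226-23168134 on the plus strand and encodes 244 residues, the fewest of the 9. In all 9 proteins the fingers take up 81 residues. They are followed by 1 to 3 residues in Klf2, Klf3, Klf4, Klf5, Klf6 and Klf7, and by 19, 29 and 39 residues in Klf9, Klf10 and Klf13.

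The levels in ESCs and NCs differed most for Klf4, Klf2, Klf5 and Klf9. All 9 members reached 1 FPKM in ESCs and in NCs, and 4 of 9 were at least 2-fold lower in NCs. None was at least 2-fold higher. Over the 13293 rows of the table with an FPKM of at least 1 in either condition, 10.6% were at least 2-fold lower in NCs and 12.5% at least 2-fold higher. Among the 7001 rows whose ESC level lay within the members' own range, 9.18% were at least 2-fold lower and 2.90% at least 2-fold higher. The median log2 ratio of NC to ESC FPKM was -0.63 over the members and -0.03 over all 13293 rows. The plot of both levels of each member shows the 4 long differences apart from the 5 short differences.

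**Figure D1:**
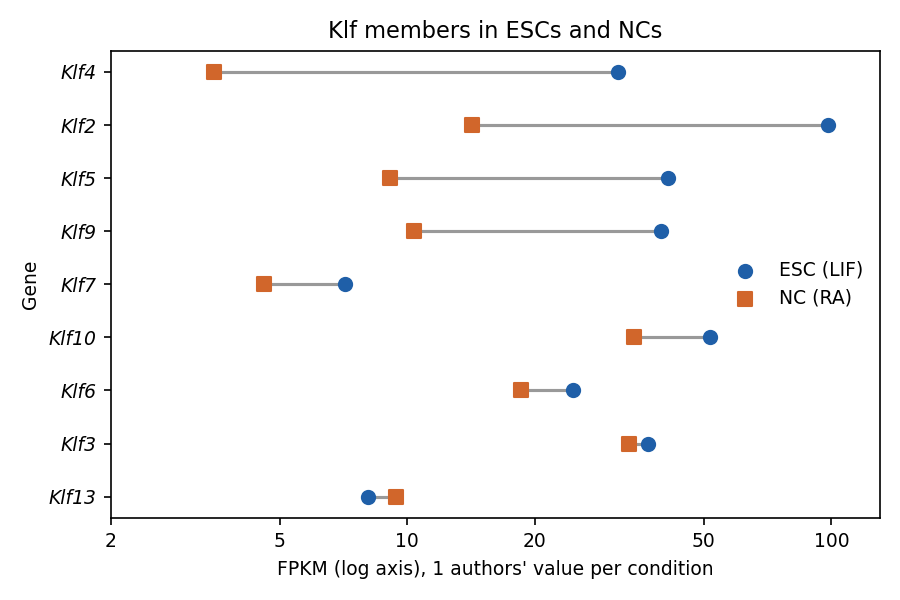
FPKM of each of the 9 Klf members on a log axis, with a circle for ESCs and a square for NCs (1 authors' value per condition, no error bars). Klf4, Klf2, Klf5 and Klf9 span 3.83-fold to 8.95-fold between the circle and the square, and Klf13 alone has its NC level on the right; Klf3, lower by 1.11-fold as deposited, turns to a log2 ratio of 0.15 when FPKM are scaled to a common sum.

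Klf4, a reprogramming factor, had the largest difference of the family. Its level was 31.4 FPKM in ESCs against 3.51 in NCs, 8.95-fold lower. This is a log2 ratio of -3.16, and 1.38% of the 13293 rows had a lower one. Klf4 went from rank 6 of the 9 members in ESCs to the lowest level in NCs.

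Klf2, which sustains self-renewal alongside Klf4 and is elsewhere known for its role in blood vessels, was the most abundant member in ESCs. Its level was 97.9 FPKM in ESCs, higher than in 92.7% of the 13293 rows, and 14.2 FPKM in NCs. The level was 6.89-fold lower in NCs (log2 ratio -2.78), and the level left in NCs was still higher than in 57.9% of rows. Per transcript length, Klf2 therefore stood at 3.12 times Klf4 in ESCs and at 4.05 times Klf4 in NCs.

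Klf5, needed for the inner cell mass and trophectoderm of the blastocyst, was at 41.3 FPKM in ESCs against 9.10 in NCs. It was 4.53-fold lower (log2 ratio -2.18), with 3.12% of rows having a lower ratio. The order of the differences was thus Klf4, Klf2 and Klf5. The summed level of these 3 genes was 171 FPKM in ESCs against 26.8 in NCs, 6.36-fold lower, and that of the other 6 members was 168 and 111 FPKM, 1.52-fold lower.

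Klf9, a Sin3-binding repressor known as a target of thyroid and glucocorticoid hormone in neurons, was the fourth member past the 2-fold limit. It was at 39.7 FPKM in ESCs against 10.4 in NCs, 3.83-fold lower (log2 ratio -1.94). Klf10, an early target of transforming growth factor beta that binds the same corepressor, was at 51.7 and 34.3 FPKM, 1.51-fold lower. Klf13, the third of this repressor group, was at 8.08 and 9.43 FPKM, 1.17-fold higher, and was the only member with a higher deposited value in NCs. The closest relatives by sequence in this group, Klf9 and Klf13, thus differed in direction as deposited. Without replicate values the 1.17-fold step of Klf13 may be no difference. Klf9 stood at 4.92 times Klf13 in ESCs and at 1.10 times Klf13 in NCs.

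Klf3, the Ctbp-binding repressor, was nearly level at 36.9 FPKM in ESCs against 33.4 in NCs. The deposited values put it 1.11-fold lower in NCs (log2 ratio -0.14), and scaling both conditions to the same summed FPKM turned this to a log2 ratio of 0.15. Klf6, an activator studied as a tumor suppressor, was at 24.6 and 18.5 FPKM, 1.33-fold lower. Klf7, its relative with a role in axon growth, was at 7.11 and 4.59 FPKM, 1.55-fold lower, so both members of this pair stayed within the 2-fold limit and Klf6 kept 3.46 times (ESCs) and 4.04 times (NCs) the level of Klf7.

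The histogram of all rows places the members against the whole table. Klf4, Klf2, Klf5 and Klf9 lie in the lower tail, where between 1.38% and 3.83% of rows had a lower ratio. Klf7, Klf10, Klf6 and Klf3 lie between 17.9% and 42.6%, and Klf13 at 65.2%. A gap separates Klf9 (3.83-fold lower) from Klf7 (1.55-fold lower), so no member lies close to the 2-fold limit on either side.

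**Figure D2:**
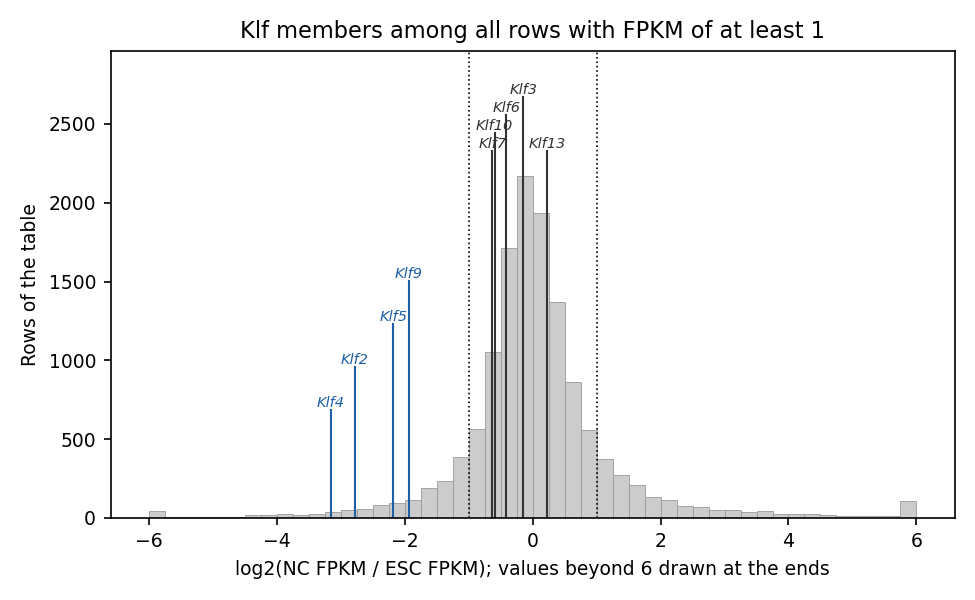
Histogram of log2(NC FPKM / ESC FPKM) over the 13293 rows with an FPKM of at least 1 in either condition (horizontal axis in log2 units, vertical axis in rows), with each Klf member marked by a line whose height has no meaning and dotted lines at 2-fold. The blue lines of Klf4, Klf2, Klf5 and Klf9 stand left of -1.9 in the lower tail, and the other 5 stand inside the 2-fold lines; Klf3 turns to 0.15 when FPKM are scaled to a common sum.

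The deposited FPKM sum to 770592 over all genes in ESCs and to 628679 in NCs. Setting both sums equal moves every log2 ratio up by 0.29, and the count of rows past 2-fold goes from 1658 higher and 1412 lower (54.0% higher) to 2350 higher and 980 lower (70.6% higher). On that scale the log2 ratios were -2.87 for Klf4, -2.49 for Klf2, -1.89 for Klf5 and -1.64 for Klf9, so the same 4 members were past the 2-fold limit. Klf7, Klf10 and Klf6 had -0.34, -0.30 and -0.12, and Klf13 had 0.52. Centring on the median and upper quartile scaling moved the ratios less, with 56.7% and 59.1% of the rows past 2-fold being higher. Under these Klf3 stayed lower in NCs, at log2 ratios of -0.10 and -0.06, so its turn belongs to the common sum alone.

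The summed level of the 9 members was 339 FPKM in ESCs against 137 in NCs, 2.46-fold lower. After each condition was scaled to 1000000 summed FPKM over the whole table, the members made up 440 in ESCs and 219 in NCs. Klf2, Klf4 and Klf5 together held 50.3% of the members' summed FPKM in ESCs and 19.5% in NCs, a share that does not move with the scaling of a condition. Klf2 alone held 28.9% in ESCs and 10.3% in NCs. The largest shares in NCs were those of Klf10 at 24.9% and Klf3 at 24.3%, against 15.3% and 10.9% in ESCs, although neither had a higher deposited FPKM in NCs (Klf3 turns higher under scaling to a common sum). The stacked bars show each share against a total that was 2.46-fold smaller in NCs.

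**Figure D3:**
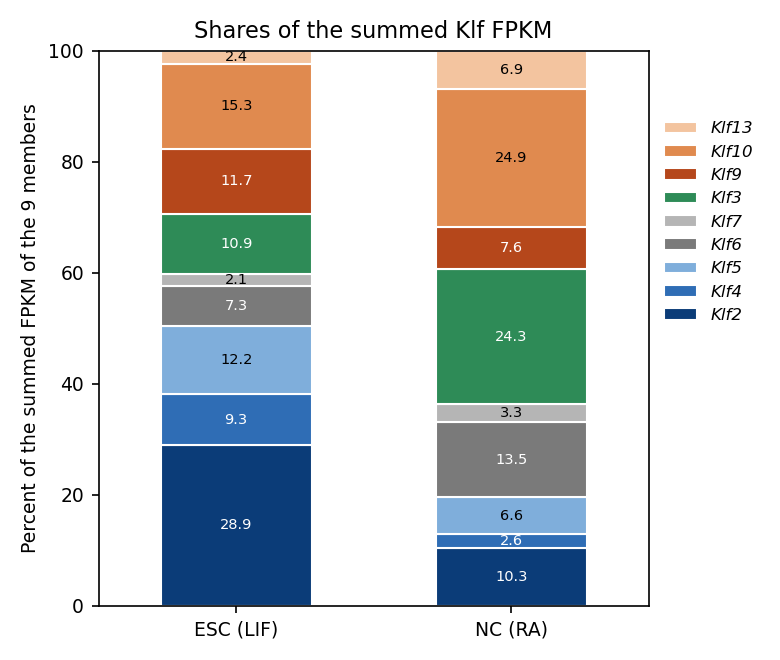
Share of each member in the summed FPKM of the 9 Klf members (percent, vertical axis from 0), as 1 bar for ESCs and 1 for NCs, with Klf2, Klf4 and Klf5 in blue at the bottom. The blue segments take up 50.3% of the ESC bar and 19.5% of the NC bar, while Klf10 and Klf3 take up the largest segments of the NC bar.

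The order of the levels changed with it. In ESCs it ran Klf2, Klf10, Klf5, Klf9, Klf3, Klf4, Klf6, Klf13 and Klf7, over a 13.8-fold range, with steps of 1.04-fold between Klf5 and Klf9 and 3.05-fold between Klf6 and Klf13. In NCs it ran Klf10, Klf3, Klf6, Klf2, Klf9, Klf13, Klf5, Klf7 and Klf4, over a 9.77-fold range. Without replicate values it cannot be said which neighbors differ beyond their spread, and steps as small as those between Klf10 and Klf3 in NCs (1.03-fold) or Klf13 and Klf5 in NCs (1.04-fold) may not be an order at all. Klf3 went from 0.377 times the level of Klf2 in ESCs to 2.35 times in NCs, and Klf10 from 1.65 to 9.77 times the level of Klf4.

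The ESC and NC labels were read against marker lists. All 6 ESC markers were at least 2-fold lower in NCs (median log2 ratio -3.86) and all 5 RA response genes at least 2-fold higher (median 7.64). Among neural markers, Sox1 and Pax6 were at least 2-fold higher, Neurog2 stayed under 1 FPKM, and the neuronal tubulin Tubb3 was lower in NCs (33.4 and 7.54 FPKM). Map2, a marker of mature neurons, was at 3.18 FPKM in ESCs against 2.35 in NCs. Sox1 and Pax6 were thus higher in the cells named neuronal, whereas Tubb3 and Map2 were not. Markers of primitive endoderm (4 of 5 at least 2-fold higher, summed level 16.2 and 37.7 FPKM) moved too. So did those of fibroblasts (3 of 5 higher, 1 lower, summed level 21.4 and 45.4 FPKM). Scaling to a common sum made the fibroblast count 4 of 5 higher. Of all rows, 12.5% were higher and 10.6% lower. Sox17, Foxa2 and Col3a1 passed the FPKM filter only through NCs, as did Cyp26a1, Rarb and Hoxb1 of the RA response genes. Of 3 trophoblast markers, Cdx2 and Elf5 were under 1 FPKM in both conditions and Eomes was at 1.25 and 0.657 FPKM, 1.90-fold lower. The part of other cell types in the Klf differences was not tested. In such bulk RNA, fewer cells that express a gene and less of its RNA per cell cannot be told apart.

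The 10 partners of the naive pluripotency network act with Klf2, Klf4 and Klf5 in ESCs, and 5 of the 6 ESC markers above are among them, so the counts of these lists are not separate evidence. Of the 10 partners, 9 were at least 2-fold lower in NCs and 0 higher, against 10.6% and 12.5% of all rows. Their median log2 ratio was -3.72 against -0.03 over all rows. Esrrb, an orphan nuclear receptor of this network, was at 128 FPKM in ESCs against 2.94 in NCs. Zfp42, a marker of the undifferentiated state, was at 299 and 22.9 FPKM. Tbx3, a T-box repressor, was the exception within the 2-fold limit at 7.37 and 4.81 FPKM. With FPKM scaled to a common sum, 8 of the 10 partners were past the limit, because Stat3 went from a log2 ratio of -1.06 to -0.77. On that scale 980 of all 13293 rows were at least 2-fold lower.

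Of the 8 other Klf genes of the table, 5 had an FPKM of at least 1 in either condition, and of these 2 were at least 2-fold lower in NCs and 0 higher, against 10.6% and 12.5% of all rows, so little can be read from the 0. Klf8, a Ctbp-binding repressor like Klf3, was at 4.30 FPKM in ESCs against 1.52 in NCs, 2.83-fold lower. Klf15, a regulator of metabolism, was at 12.9 and 3.93 FPKM, 3.28-fold lower. Klf11, Klf12 and Klf16 stayed within the 2-fold limit, and Klf16 came closest to it at 20.7 and 10.8 FPKM. Klf1, which drives red blood cell genes, Klf14 and Klf17 were under 1 FPKM in both conditions. Over all 17 Klf genes, 14 had an FPKM of at least 1 in either condition, of which 6 were at least 2-fold lower and 0 higher.

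The Sp factors have the same kind of fingers and bind GC boxes, and they are the nearest relatives outside the family. Of 9 Sp genes, 7 had an FPKM of at least 1 in either condition, with a median log2 ratio of -0.02. Of these, 2 (Sp5 and Sp8) were at least 2-fold higher in NCs and 0 lower, against 12.5% and 10.6% of all rows. Both Sp5 and Sp8 passed the FPKM filter only through NCs, so little can be read from these counts. Sp5, a Wnt target, was at 0.566 FPKM in ESCs against 1.61 in NCs. Sp8, a factor of limb and forebrain patterning, was listed at 0.0444 and 6.06 FPKM. Sp1 and Sp3, found in most cells, were at 42.2 and 24.0 FPKM and at 30.7 and 30.3 FPKM. In the plot of both families, points below the lower 2-fold line are Klf genes. Those above the upper line are Sp5 and Sp8, both under 1 FPKM in ESCs, so no contrast between the families was read from it.

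**Figure D4:**
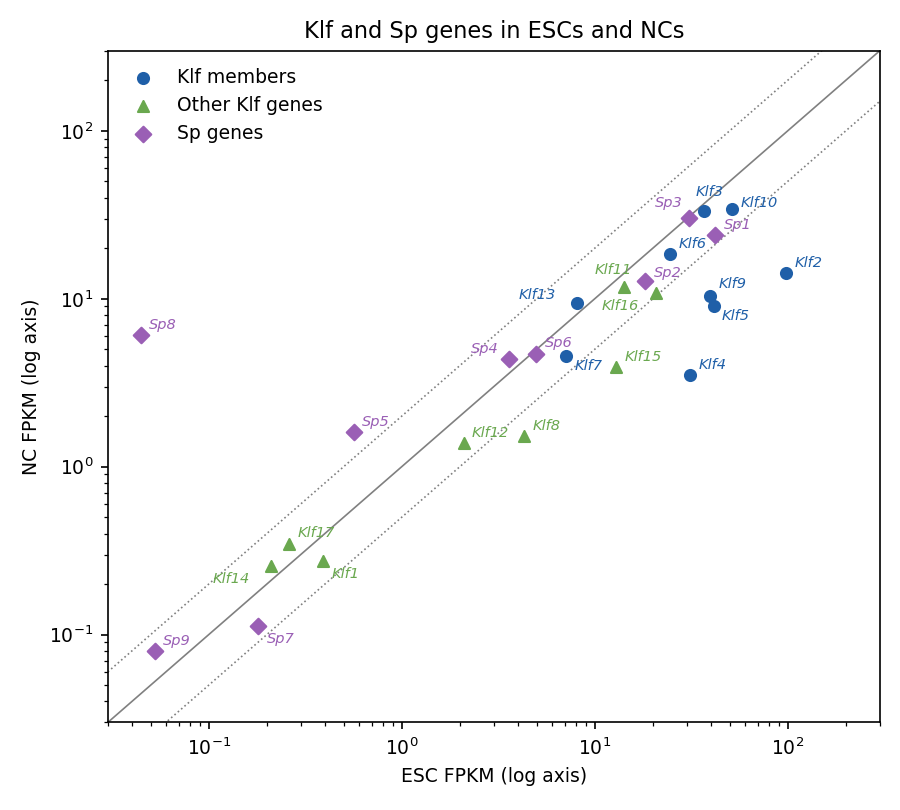
FPKM in ESCs (horizontal, log axis) against FPKM in NCs (vertical, log axis) for the 9 Klf members (circles), 8 other Klf genes (triangles) and 9 Sp genes (diamonds), with the line of equal levels and dotted 2-fold lines. Klf2, Klf4, Klf5, Klf9, Klf8 and Klf15 lie below the lower dotted line. Sp5 and Sp8 lie above the upper dotted line, both under 1 FPKM in ESCs. Klf3, just under the line of equal levels, crosses it when FPKM are scaled to a common sum.

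The RNA levels of proteins that Klf members bind showed unequal differences, and the proteins themselves were not measured here. Ctbp2, the partner of Klf3 and Klf8, was at 96.3 FPKM in ESCs against 30.8 in NCs, 3.13-fold lower. Ctbp1, its paralog, was at 42.5 and 78.2 FPKM, which is higher in NCs but within the 2-fold limit as deposited, and past it at a log2 ratio of 1.17 with FPKM scaled to a common sum. The Ctbp2 level was thus 2.27 times that of Ctbp1 in ESCs and 0.394 times in NCs. Sin3a was at 56.1 and 36.9 FPKM and Sin3b at 105 and 90.2 FPKM, both within the limit. Ubiquitin ligases that act on Klf proteins (Wwp1, Fbxw7, Smurf1 and Btrc) had 0 of 4 genes past 2-fold in either direction, a count too small to set apart from the 12.5% higher and 10.6% lower of all rows, and Wwp1, a ligase of Klf2 and Klf5, was at 15.1 and 11.0 FPKM.

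Relatedness by sequence and likeness of the differences could be set side by side in the members' fingers. Over the 36 pairs of members, 60.5% to 95.1% of the 81 finger residues were identical, with a median of 70.4%, and against the Sp proteins the 81 pairs had 51.9% to 72.8%. Klf2 and Klf4 were 91.4% identical and were the members with the lowest ratios. Klf6 and Klf7 were 95.1% identical and both were within the 2-fold limit. Klf3 and Klf5 were 86.4% identical, as were Klf5 and Klf7. Yet Klf5 was 4.53-fold lower and Klf3 1.11-fold lower (log2 ratio 0.15 under scaling to a common sum). Klf9 and Klf13 were 81.5% identical, with Klf9 past the limit and Klf13 within it at 1.17-fold higher, a step of unknown spread. Klf10 was closest to Klf13, at 75.3%, with neither past the limit. Close relatives were thus found on the same side of the 2-fold limit and on different sides.

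**Figure D5:**
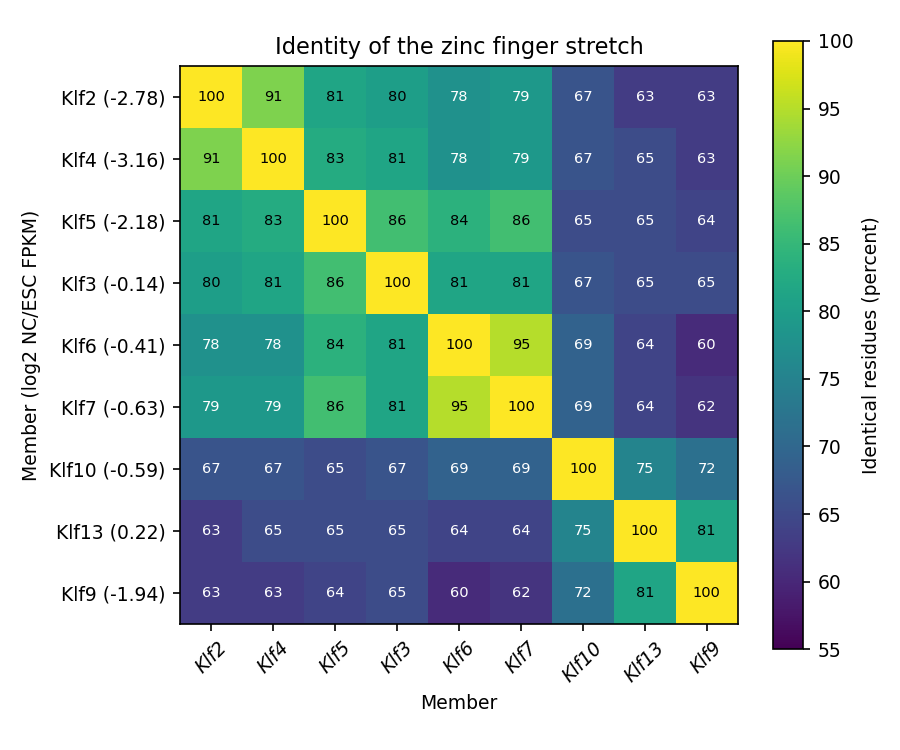
Identity of the zinc finger stretch between the 9 members (percent of 81 residues, color scale from 55 to 100), with the log2 ratio of NC to ESC FPKM beside each row name. Klf2 and Klf4 (91.4%) share low ratios, whereas Klf9 and Klf13 (81.5%) and Klf3 and Klf5 (86.4%) do not share theirs; the Klf3 ratio becomes 0.15 when FPKM are scaled to a common sum.

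The promoters of Klf4, Klf2 and Klf9 are shown because these members lie in the lower tail and have an entry in the table of RefSeq promoters used here. Each stretch ends before the first annotated exon (GRCm38.p6, 5′ to 3′ on the gene's strand), and capitals mark CACCC and the GC box GGGCGG on either strand; neighboring GC boxes overlap in the Klf4 stretch and appear there as 1 run of capitals.
Klf4, chr4:55532476-55532725, minus strand: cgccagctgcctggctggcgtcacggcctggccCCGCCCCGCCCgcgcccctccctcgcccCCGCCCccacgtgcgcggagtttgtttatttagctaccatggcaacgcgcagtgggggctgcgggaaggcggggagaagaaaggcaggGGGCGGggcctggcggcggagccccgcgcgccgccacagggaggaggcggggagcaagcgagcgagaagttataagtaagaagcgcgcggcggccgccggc
Klf2, chr8:72318812-72319032, plus strand: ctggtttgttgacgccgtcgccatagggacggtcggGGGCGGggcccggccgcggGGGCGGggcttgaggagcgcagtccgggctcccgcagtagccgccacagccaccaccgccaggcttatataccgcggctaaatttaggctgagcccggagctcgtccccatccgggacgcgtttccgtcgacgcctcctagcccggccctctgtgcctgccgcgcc
Klf9, chr19:23140976-23141225, plus strand: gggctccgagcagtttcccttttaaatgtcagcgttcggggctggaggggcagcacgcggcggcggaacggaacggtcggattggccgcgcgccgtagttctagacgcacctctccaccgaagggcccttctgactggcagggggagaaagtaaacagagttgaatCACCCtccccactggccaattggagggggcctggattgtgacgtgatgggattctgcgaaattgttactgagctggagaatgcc
The Klf4 stretch holds 4 GC boxes and the Klf2 stretch 2, whereas the Klf9 stretch holds none and 1 CACCC. In the full windows of 300 bases, which were at hand for 7 members, GGGCGG was in 6 of 7 and in 35.7% of all 32851 windows, and CACCC was in 5 of 7 and in 57.5% of all windows. TTCNNNGAA, the letters that Stat factors bind, was in 1 of 7, the Klf9 window, and in 8.30% of all windows. CCAAT was in 3 of 7 (Klf6, Klf9 and Klf13) and TATAAA in 0 of 7, against 37.4% and 13.6% of all windows. These matches describe letters only, and no binding was read from them. The promoters of Klf5 and Klf10 were not used here.

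The study measured Klf4 by RT-qPCR as well, and its primers show which piece of the transcript that assay reads. The forward primer lies at chr4:55528240-55528260 and the reverse primer at chr4:55528211-55528231, both in exon 5 of Klf4, and capitals are not used in them.
Klf4 forward: gaaattcgcccgctccgatga
Klf4 reverse: ctgtgtgtttgcggtagtgcc
The product of 50 bases covers the whole 24-base finger stretch shown above, with 11 of its bases under the forward primer and 5 under the reverse. The forward primer also matched the processed pseudogene Gm48640, and the reverse primer matched no transcript other than those of Klf4.

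Sequence shared with other transcripts limits some of the levels. No word of 50 bases in the transcripts of Klf2, Klf6, Klf9 or Klf10 occurred in another gene, and 0.121% to 0.268% of words did in Klf4, Klf5 and Klf13. In Klf3 6.92% of words were shared, with 44 genes. In Klf7 40.8% were shared with Gm26649, a noncoding RNA on the opposite strand whose span lies wholly within Klf7 exons. Neither the library kit nor the methods state that strand was kept, so without strand reads of Klf7 and Gm26649 cannot be told apart. The span of Gm13748, another gene on the opposite strand, covers 628 bases of Klf7 exons. Klf3 exons likewise lie opposite the span of Gm20033, over 404 bases at the start of the gene.

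For the 4 members past the limit, the nearest genes in both levels were found by the distance in log2(FPKM + 1) over the 2 conditions. Klf9 was nearest to Pml (40.6 and 10.6 FPKM, distance 0.0383) and Jup, and Klf5 to Sycp3 (41.1 and 8.73 FPKM, distance 0.0555) and Cldn7. Klf4 was nearest to 1700019D03Rik (27.7 and 3.48 FPKM, distance 0.174) and Enpp3. Klf2 was nearest to Usp28 (91.2 and 17.4 FPKM, distance 0.291) and to the microRNA gene Mir453. Within a distance of 0.25 there were 12 genes for Klf5, 9 for Klf9, 1 for Klf4 and 0 for Klf2, and with only 2 conditions such likeness is a description of levels.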

How the data were processed

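RNA from 3 ESC and 3 NC samples was sequenced on an Illumina HiSeq. Per the study's methods and the submitters' processing notes, the authors aligned reads to mm10 with TopHat2 (version 2.0.8, running Bowtie2 version 2.1.0), used Cufflinks 2.0.2 and compared conditions with Cuffdiff. The deposited table holds the authors' FPKM, 1 value per gene and condition, and the heading of the NC column reads FPK, which was taken as FPKM. It also holds the authors' fold changes, test statistics, p-values and q-values, which were not used. Depth per sample is unknown, and no interval could be given.

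Ratios were computed without a pseudocount over rows with an FPKM of at least 1 in either condition, and a row was counted past a fold of 2. No test was run, because single samples have no values in the table. Named genes were all 9 members, the other Klf and Sp genes, fixed lists of corepressors, ubiquitin ligases, naive network partners and cell type markers, and the 2 genes nearest to each member past the limit. A result within the marker lists is not reported here. The members and lists were chosen with earlier results of these data known. Transcripts and positions came from GENCODE M21 and promoters from RefSeq. Fold limits of 1.5 and 4, pseudocounts of 0.1 and 1, other FPKM filters, centring on the median, a common FPKM sum, upper quartile scaling and sums over all Klf genes were tried. The counting was tested on simulated data with planted changes set well past the limit, which checks the code only and not any call made here. Python 3.11.15, numpy 2.4.6, pandas 2.3.3, matplotlib 3.10.9 and Biopython 1.88 were used.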

Additional observations from a re-analysis of the deposited data

How the results depend on the processing

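Of 45 alternative values of the 9 member ratios (pseudocounts and scalings), 44 kept their direction and their side of the 2-fold limit. The exception was Klf3, whose log2 ratio became 0.15 with FPKM scaled to a common sum. The 4 of 9 members at least 2-fold lower were 6 at a fold limit of 1.5 and 3 at 4. Beside them, 2573 and 488 of the 13293 rows were lower at those limits, and 2741 and 679 were higher. Of the members, 0 were higher at any limit tried. As 2.90% of rows in the members' ESC range were at least 2-fold higher, little can be read from that 0. With a pseudocount of 1, 1074 of the 13293 rows were at least 2-fold higher in NCs and 974 lower. Among the 11717 rows at 1 FPKM or more in both ESCs and NCs, 873 were higher and 924 lower. Among the 19582 rows with an FPKM above 0 in either, 3861 were higher and 2880 lower. Within the members' ESC range of 7001 rows, a filter chosen after seeing the data, 203 were higher and 643 lower. With all Klf genes in the sum, Klf2, Klf4 and Klf5 held 43.3% in ESCs and 16.0% in NCs. No paired analysis was possible because the columns hold 1 value per condition and carry no replicate numbers, and no replicate could be left out for the same reason. Depth is unknown, so counting error was not estimated.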
